A study of Mus musculus with 12 samples.

Results

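Zdhhc14, Lhfpl2, Arap1, Galnt1 and Mms19 are 5 mouse gene loci that had been chosen on measured values of this study: they held single regions of chromatin far more open in lipid-laden monocyte-derived macrophages than in unladen ones. A locus was taken as the gene's span in the RefSeq annotation plus 5 kb on either side, and it held every consensus region that overlapped this stretch. The 5 loci were 5 of 16300 protein-coding loci with at least 1 region, and together they held 95 of 117835 regions. Because the choice rested on lipid-laden against unladen monocyte-derived macrophages, values of that comparison, counts of called regions and loci included, are given as a description of the members, and nothing is read from them.

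Open chromatin had been mapped with ATAC-seq, a method that lets the enzyme Tn5 cut and tag DNA wherever it is accessible, in cells sorted from brain tumours of mice with the genotype Ink4a/ArfKO, PDGFB. All 4 groups carried this genotype and came from such tumours: lipid-laden monocyte-derived macrophages (LL-MDM), monocyte-derived macrophages without lipid load (MDM), lipid-laden microglia (LL-MG) and microglia without lipid load (MG), with 3 libraries each. According to the series' design text, this model drives PDGFB in Nestin-positive progenitor cells, so the macrophages were the host's own cells. Neither the sorting markers nor the animals' ages are given in the sources used here. For 8 of the 12 libraries the sample title named another group than the sample description. Groups here follow the descriptions, which are also the column names of the count table. By description, the libraries titled LL-MDM or LL-MG are all microglia, and those titled MDM or MG are all monocyte-derived. Laden against unladen by title therefore sets the lineages of the descriptions against each other. The titles also carry 1 of 3 numbers, with 4 libraries each, whose meaning is not stated. Each number covers every group once by title, but by description only 1 of the 3 does, and the others hold LL-MDM and LL-MG alone or MDM and MG alone. No library was therefore tied to a mouse, and each p-value rests on the spread from library to library, which may be technical.

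Monocyte-derived macrophages enter a brain tumour from the blood, whereas microglia settle in the brain early in development. Each lineage keeps its own set of open enhancers, short stretches of DNA where lineage factors bind, and these can lie far from the start of the gene they act on. Macrophages that take up myelin or other lipid-rich debris store it in droplets, export cholesterol and change which genes they use. Accessibility shows where DNA is open, not how much RNA a gene makes.

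Total counts in the regions ranged from 1162969 to 7390521 in LL-MDM, from 6341183 to 18938222 in MDM, from 2150072 to 2764146 in LL-MG and from 2753453 to 6872724 in MG. In the shallowest LL-MDM library a level of 1 CPM (counts per 1000000 counts in regions, after scaling) was therefore about 1 count. Correlations of log2 CPM between libraries of a group were 0.873 to 0.951 in LL-MDM, 0.971 to 0.982 in MDM, 0.917 to 0.924 in LL-MG and 0.859 to 0.943 in MG. On the second principal component, with 13.1% of the variance, MG 2 and MG 3 lay at -175.3 and -110.3, away from MG 1 at -8.75. LL-MDM 1 stood apart on the third. Summed over 8 microglia marker loci, the level was 374.5 to 391.2 CPM in LL-MDM, 309.3 to 332.4 CPM in MDM, 594.9 to 645.7 CPM in LL-MG and 456.2 to 629.9 CPM in MG. Summed over 7 marker loci of monocyte-derived macrophages, it was 475.9 to 514.6 CPM in LL-MDM, 648.3 to 686.5 CPM in MDM, 264.0 to 284.9 CPM in LL-MG and 249.8 to 358.8 CPM in MG. The lineage labels by description thus stood in the same order as their markers.

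RefSeq lists start sites in the promoter table for 3 of the 5 genes, Arap1, Lhfpl2 and Mms19. The windows below run from 250 bases before to 50 bases after a listed start, 5′ to 3′ on the gene's strand (RefSeq, build GRCm38.p6). They are shown because they overlap regions whose behaviour differed: the Arap1 window, at an internal start, overlaps the region of that locus with the strongest LL-MDM difference, the Lhfpl2 window overlaps a region at the gene's start that was higher in LL-MDM, and the Mms19 window lies inside a region that differed little. Capitals mark the hexamer AGGTCA, a sequence recognised by many nuclear receptors, or its reverse complement TGACCT, and the E-box CACGTG, recognised by basic helix-loop-helix factors.
Arap1 chr7:101385276-101385575 (+): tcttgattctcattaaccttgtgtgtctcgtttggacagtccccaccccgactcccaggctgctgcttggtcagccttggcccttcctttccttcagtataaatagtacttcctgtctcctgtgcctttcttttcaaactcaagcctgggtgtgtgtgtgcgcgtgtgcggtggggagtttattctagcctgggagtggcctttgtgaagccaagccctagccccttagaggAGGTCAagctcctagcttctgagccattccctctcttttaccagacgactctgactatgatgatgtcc
Lhfpl2 chr13:94057546-94057845 (+): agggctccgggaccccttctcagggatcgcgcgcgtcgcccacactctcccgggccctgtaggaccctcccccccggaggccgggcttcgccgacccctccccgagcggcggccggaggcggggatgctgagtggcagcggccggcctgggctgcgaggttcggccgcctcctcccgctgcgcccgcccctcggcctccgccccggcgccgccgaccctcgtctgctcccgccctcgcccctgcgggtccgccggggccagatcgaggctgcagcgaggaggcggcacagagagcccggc
Mms19 chr19:41981081-41981380 (-): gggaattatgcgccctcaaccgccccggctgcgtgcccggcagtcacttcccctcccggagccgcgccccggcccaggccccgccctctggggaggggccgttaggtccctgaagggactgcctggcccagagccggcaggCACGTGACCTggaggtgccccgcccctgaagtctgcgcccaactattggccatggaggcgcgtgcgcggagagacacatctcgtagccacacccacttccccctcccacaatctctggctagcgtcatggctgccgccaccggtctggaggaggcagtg
The Arap1 window holds AGGTCA at bases 233 to 238, inside the stretch of bases 80 to 300 that the open region covers. The Mms19 window holds CACGTG at bases 142 to 147 and TGACCT at bases 146 to 151, which overlap. Of 32851 promoter windows of the same length, 16.3% hold AGGTCA on either strand and 7.15% hold CACGTG. The AP-1 motif TGANTCA, held by 7.81% of all windows on either strand, was not found in these 3 windows. Neither was the C/EBP motif TTGCNNAA (10.8% of all windows), the PU.1 motif GAGGAAGT (3.2%) or the direct repeat of the nuclear receptor hexamer with 4 bases between its copies (0.0152%). Such matches are a description of the letters only.

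Summed over its regions, each of the 5 loci was more open in LL-MDM than in MDM, by 1.3 to 2.0 times. At Lhfpl2 (chr13:94057152-94195410, mm10), which encodes a tetraspan membrane protein of the LHFPL family, the 3 LL-MDM libraries had 306.4, 315.5 and 284.6 CPM, against 151.0, 151.7 and 151.3 CPM in MDM. The locus had 467.1, 481.7 and 402.7 CPM in LL-MG, against 389.4, 302.6 and 327.9 CPM in MG. LL-MDM and MDM were far apart, and the LL-MDM libraries overlapped those of MG and lay below those of LL-MG. The log2 fold change of LL-MDM over MDM was 1.00 ± 0.10 (SE, n = 3 each).

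At Zdhhc14 (chr17:5492562-5753891), a palmitoyltransferase gene whose enzyme attaches fatty acyl chains to proteins, the libraries had 288.6, 320.7 and 295.7 CPM in LL-MDM, against 192.1, 204.3 and 207.0 CPM in MDM. They had 303.6, 323.1 and 294.8 CPM in LL-MG, against 266.8, 234.4 and 246.7 CPM in MG. LL-MDM stood at the level of LL-MG, with overlapping libraries, and above all 3 MG libraries. Over MDM, LL-MDM had a log2 fold change of 0.59 ± 0.08 (SE, n = 3 each).

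At Arap1 (chr7:101347921-101412586), which encodes a GTPase-activating protein for small G proteins, among them Arf, the libraries had 379.2, 390.0 and 363.7 CPM in LL-MDM, against 258.0, 252.1 and 284.7 CPM in MDM. They had 437.7, 428.7 and 419.7 CPM in LL-MG, against 371.7, 317.2 and 331.1 CPM in MG. LL-MDM lay below every LL-MG library and overlapped MG. Relative to MDM its log2 fold change was 0.51 ± 0.08 (SE, n = 3 each).

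At Galnt1 (chr18:24205321-24286816), an enzyme gene for the first step of mucin-type O-glycosylation in the Golgi, the libraries had 50.8, 49.0 and 54.0 CPM in LL-MDM, against 34.8, 37.0 and 33.0 CPM in MDM. They had 68.8, 67.0 and 71.5 CPM in LL-MG, against 69.1, 76.0 and 70.2 CPM in MG. LL-MDM fell between MDM and both microglia groups without overlap on either side. Its log2 fold change over MDM was 0.54 ± 0.10 (SE, n = 3 each).

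At Mms19 (chr19:41943707-41981164), whose product helps deliver iron-sulfur clusters to DNA repair and replication enzymes, the libraries had 145.6, 157.9 and 175.3 CPM in LL-MDM, against 114.1, 119.1 and 139.5 CPM in MDM. They had 175.2, 165.4 and 164.8 CPM in LL-MG, against 165.5, 194.6 and 171.4 CPM in MG. LL-MDM stayed above MDM but overlapped both microglia groups. Its log2 fold change over MDM was 0.38 ± 0.10 (SE, n = 3 each).

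**Figure D1:**
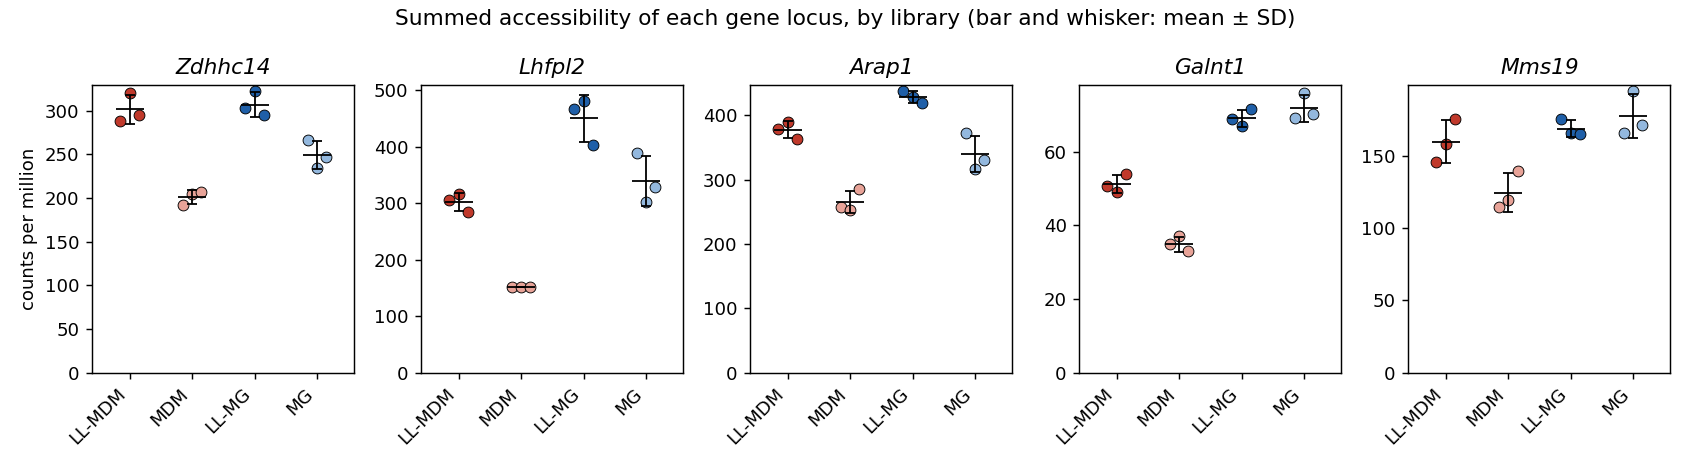
Accessibility of each locus (vertical axis, summed CPM of its regions, from 0) in the 4 groups, with 1 point per library and the mean ± SD of 3 libraries. LL-MDM lies above MDM at all 5 loci, for example at 284.6 to 315.5 CPM against 151.0 to 151.7 CPM at Lhfpl2, and below LL-MG without overlap at Lhfpl2, Arap1 and Galnt1.

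All 5 loci had LL-MDM libraries above every MDM library, where 20.7% of the 15540 loci tested did, and nothing is read from that count because the choice of members used this comparison. By log2 fold change of LL-MDM over MDM the loci ranked 413 (Lhfpl2), 1085 (Zdhhc14), 1267 (Galnt1), 1362 (Arap1) and 2039 (Mms19) of 15540. The median over all loci was 0.01. As whole loci they were therefore not the strongest of the series. The single regions given below were picked within each locus by this same comparison. That they stand further out than their loci follows in part from that choice. In bulk libraries a region that is open in more of the cells, one that is more open in each cell and a different mix of cells cannot be told apart.

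In each locus 1 lead region, the tested region with the smallest p among those higher in LL-MDM than in MDM, is given in full. At Zdhhc14 it was the 845 bp region chr17:5569109-5569953, which starts 76547 bp into the gene span. It had 38.1, 50.8 and 48.1 CPM in LL-MDM, against 8.38, 10.4 and 9.31 CPM in MDM, and 59.2, 64.7 and 60.4 CPM in LL-MG, against 38.6, 30.3 and 39.4 CPM in MG. The MDM libraries were the low ones, and LL-MDM overlapped MG. Its log2 fold change over MDM was 2.32 ± 0.15 (SE).

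The Lhfpl2 lead, chr13:94169369-94169705, lies 111741 bp downstream of the listed start, towards the far end of the gene. It had 21.2, 21.3 and 21.6 CPM in LL-MDM, against 3.00, 3.53 and 3.10 CPM in MDM, and 47.1, 48.1 and 44.4 CPM in LL-MG, against 30.1, 22.1 and 28.0 CPM in MG. Here LL-MDM was just below all 3 MG libraries, and its log2 fold change over MDM was 2.71 ± 0.18 (SE). The Arap1 lead, chr7:101385355-101385689, is centred 4 bp from the internal start whose window is printed above, and it covers 221 of that window's 300 bases. It had 14.4, 21.4 and 22.2 CPM in LL-MDM, against 3.35, 3.84 and 3.76 CPM in MDM, and 43.2, 46.3 and 51.0 CPM in LL-MG, against 27.3, 21.8 and 27.3 CPM in MG. LL-MDM 1, the shallowest library, was the low one of its group, and the log2 fold change over MDM was 2.48 ± 0.19 (SE).

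The Galnt1 lead, chr18:24245819-24246389, starts 40498 bp into the gene span. It had 11.0, 15 and 15.4 CPM in LL-MDM, against 1.68, 2.08 and 1.31 CPM in MDM, and 29.0, 27.4 and 25 CPM in LL-MG, against 25.5, 19.2 and 21.5 CPM in MG. LL-MDM lay below every microglia library of either kind, and its log2 fold change over MDM was 3.00 ± 0.23 (SE). The Mms19 lead, chr19:41973938-41974399, lies 6962 bp downstream of the listed start. It had 5.92, 11.8 and 9.81 CPM in LL-MDM, against 0.419, 0.312 and 0.490 CPM in MDM, and 28.5, 29.2 and 25.7 CPM in LL-MG, against 27.6, 13.9 and 18.2 CPM in MG. This region was nearly closed in MDM, and LL-MDM again lay below every microglia library, with a log2 fold change over MDM of 4.67 ± 0.35 (SE).

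**Figure D2:**
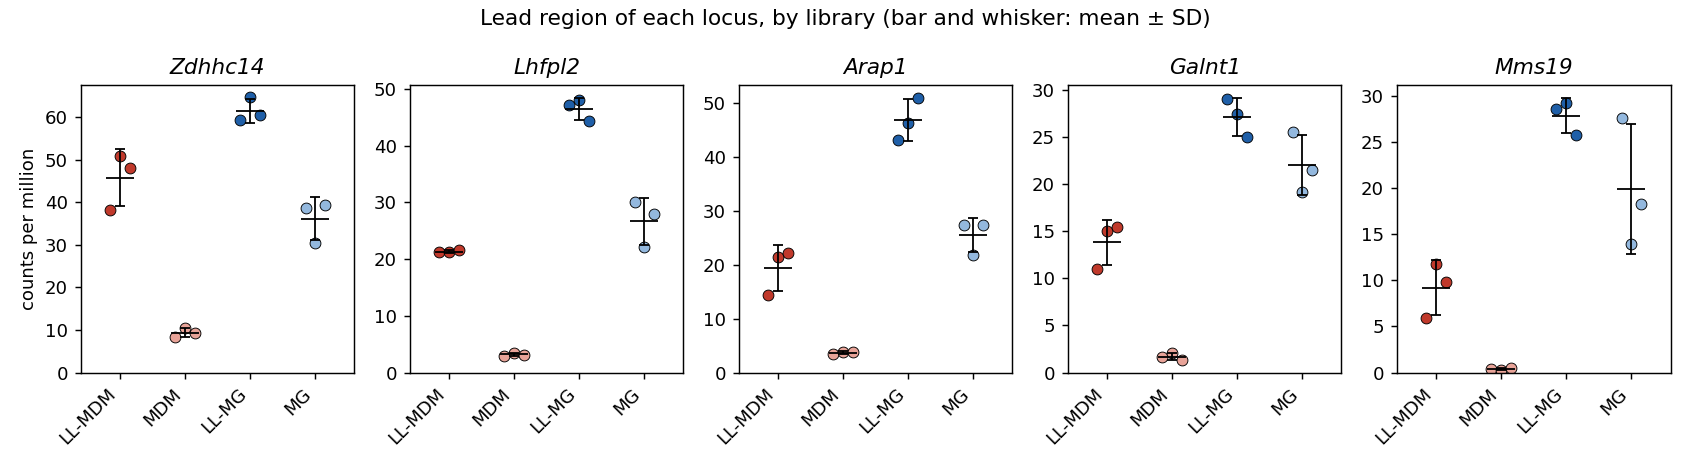
Accessibility of the lead region of each locus (vertical axis, CPM, from 0) in the 4 groups, with 1 point per library and the mean ± SD of 3 libraries. MDM is the lowest group in every panel, at 0.312 to 0.490 CPM for Mms19 and at 8.38 to 10.4 CPM for Zdhhc14, and LL-MDM lies below LL-MG in every panel.

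By log2 fold change the lead regions ranked 12 (Mms19), 341 (Galnt1), 561 (Lhfpl2), 805 (Arap1) and 1032 (Zdhhc14) of the 77737 regions tested. The region identifiers record in which groups the authors had called a peak. For the leads of Arap1, Galnt1 and Mms19 they name LL-MDM, LL-MG and MG but not MDM, although MDM had the deepest libraries. For the leads of Zdhhc14 and Lhfpl2 they name all 4 groups.

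How much of a locus's difference the lead carried varied widely. At Galnt1 it made up 74.3% of the summed CPM difference between LL-MDM and MDM, at Zdhhc14 36.1%, at Mms19 24.8%, at Arap1 13.9% and at Lhfpl2 12.0%. The Galnt1 region at the start of the gene span, chr18:24205285-24206534, had 33.0, 29.4 and 31.7 CPM in LL-MDM, against 28.8, 30.7 and 26.5 CPM in MDM. These libraries overlapped, and the log2 fold change was 0.10 ± 0.14 (SE), so the difference at this locus lay in the gene body. Without the lead the mean level of the Galnt1 locus was 37.4 CPM in LL-MDM and 33.2 CPM in MDM.

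At Mms19 the region at the start carried most of the difference. This largest region of the locus, chr19:41980818-41981889, which contains the whole printed window, had 138.8, 143.2 and 162.6 CPM in LL-MDM, against 112.8, 117.9 and 137.7 CPM in MDM. In microglia it had 141.0, 129.0 and 135.6 CPM in LL-MG, against 133.2, 171.7 and 146.4 CPM in MG. LL-MDM was just above MDM, with a log2 fold change of 0.28 ± 0.11 (SE). It is the 1 region of the locus shared with a neighbouring gene, Ubtd1, and holds 88.4% of the locus level. From regions of no other gene alone, the locus log2 fold change of LL-MDM over MDM was 3.27 in place of 0.38.

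Lhfpl2 was open more widely along its length. Of its 32 regions 27 could be tested, and 20 of these were called higher in LL-MDM than in MDM by edgeR's quasi-likelihood test at an adjusted p under 0.05, and none lower. Of all tested regions 15.4% were called higher and 14.1% lower. Since this comparison chose the loci, this count and those of Zdhhc14 and Arap1 only describe them. The region at the listed start, chr13:94057679-94058201, which covers bases 134 to 300 of the printed window, had 11.0, 11.7 and 10.1 CPM in LL-MDM, against 5.79, 5.45 and 4.57 CPM in MDM. It had 19.0, 16.6 and 14.9 CPM in LL-MG, against 16.3, 15.2 and 15.6 CPM in MG. LL-MDM was higher than MDM and lower than every microglia library, with a log2 fold change over MDM of 1.04 ± 0.21 (SE). The tested Lhfpl2 regions ranged in log2 fold change of LL-MDM over MDM from -0.25 to 2.82, with a median of 1.08. The single one below 0, chr13:94098321-94098957, averaged 26.4 ± 2.92 CPM in LL-MDM and 30.8 ± 2.37 CPM in MDM (SD, n = 3 each), with overlapping libraries.

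At Zdhhc14 the regions went in both directions. Of 32 regions 25 were tested, of which 10 were called higher in LL-MDM and 2 lower. Their log2 fold changes ran from -1.15 to 2.98. The strongest gain by fold was not the lead but chr17:5591624-5592041, with 20.3, 26.5 and 22.9 CPM in LL-MDM, against 2.09, 3.38 and 3.92 CPM in MDM. It had 16, 18.4 and 10.1 CPM in LL-MG, against 14.2, 8.85 and 14.0 CPM in MG, so LL-MDM was the highest group, without overlap with any other. Further along the gene, chr17:5716892-5717224 had 4.23, 3.86 and 3.93 CPM in LL-MDM, against 8.59, 8.20 and 9.80 CPM in MDM. It averaged 3.36 ± 1.78 CPM in LL-MG and 2.39 ± 0.942 CPM in MG (SD, n = 3 each). LL-MDM was lower than MDM here and higher than all 3 MG libraries.

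At Arap1, 19 of 22 regions were tested, 9 were called higher in LL-MDM and none lower, with log2 fold changes from -0.42 to 2.48. The region at the first listed start, chr7:101347929-101348173, had 15.2, 13.4 and 12.4 CPM in LL-MDM, against 7.82, 8.20 and 7.84 CPM in MDM. In microglia it averaged 12.9 ± 2.46 CPM in LL-MG and 16 ± 4.44 CPM in MG (SD, n = 3 each). LL-MDM overlapped both microglia groups here, unlike at the internal start, where it lay below every LL-MG library. The third start listed for Arap1 had no region over its window. The Arap1 region most reduced in LL-MDM, chr7:101352482-101352772, averaged 8.16 ± 1.77 CPM in LL-MDM and 10.2 ± 0.699 CPM in MDM (SD, n = 3 each), with overlap, and was at 3.14 ± 1.21 CPM in LL-MG and 3.48 ± 0.96 CPM in MG.

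Over the 5 loci 77 of the 95 regions passed the filter on low counts, and 18 did not. Among the 77, 42 were called higher in LL-MDM than in MDM and 2 lower, beside 15.4% and 14.1% of all regions, and nothing is read from these counts in the comparison that chose the loci. Leaving out each library in turn gave 30 to 47 called higher and 1 to 4 called lower. With the groups of the sample titles, which set the lineages of the descriptions against each other, 4 were called higher and 3 lower. With the titles' numbers as a block, 23 were called higher and 0 lower. Without LL-MDM 1, which stood apart, 38 were called higher, and the log2 fold changes of the leads ran from 2.39 at Zdhhc14 to 4.79 at Mms19. Just outside the 5 kb flanks, the region beyond Zdhhc14, chr17:5765829-5766041, averaged 9.67 ± 2.28 CPM in LL-MDM and 7.20 ± 1.83 CPM in MDM, with a log2 fold change of 0.37 ± 0.29 (SE). The one before Lhfpl2, chr13:94050853-94051117, averaged 7.53 CPM in LL-MDM and 5.78 CPM in MDM (0.35 ± 0.25). The region beyond Mms19, chr19:41989849-41990075, averaged 6.01 CPM in LL-MDM and 3.48 CPM in MDM, and its log2 fold change of 0.90 ± 0.27 was above that of the Mms19 locus. The region before Arap1, chr7:101341526-101341614, averaged 1.91 CPM in LL-MDM and 1.02 CPM in MDM and did not pass the filter. The other nearest regions were not all higher in LL-MDM. The one beyond Galnt1 averaged 1.69 CPM in LL-MDM and 2.76 CPM in MDM (-0.40 ± 0.37). In LL-MDM against MDM, those before Galnt1 (0.351 against 0.721 CPM), beyond Arap1 (1.16 against 1.22 CPM) and before Zdhhc14 (1.07 against 0.958 CPM) did not pass the filter. The log2 fold change was 0.19 ± 0.38 beyond Lhfpl2 and 0.15 ± 0.13 before Mms19.

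Lipid-laden against unladen microglia is the comparison that the choice of members did not use. In this comparison Lhfpl2, Arap1 and Zdhhc14 rose and Galnt1 and Mms19 did not pass the test. The log2 fold change of LL-MG over MG was 0.41 ± 0.10 (SE) at Lhfpl2 (adjusted p = 0.00735), 0.34 ± 0.09 at Arap1 (adjusted p = 0.0105) and 0.30 ± 0.09 at Zdhhc14 (adjusted p = 0.0167), by edgeR's quasi-likelihood test over 15540 loci. All 3 LL-MG libraries were above all 3 MG libraries at these loci, as at 8.41% of all loci. At Galnt1 it was -0.06 ± 0.10 (adjusted p = 0.698) and at Mms19 -0.08 ± 0.10 (adjusted p = 0.589), with overlapping libraries. Over all loci 4.53% were called higher and 20.5% lower, and the median was -0.14. The split of the called loci depended on the scaling: 18.1% of them were higher with TMM, 37.3% with total counts and 50.2% with loess offsets, while the median of all loci was -0.14, -0.02 and 0.01.

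The microglia calls depended on which libraries entered and on the fit. Leaving out both MG 2 and MG 3 leaves 1 MG library, assumed to vary like the other groups. The log2 fold change of LL-MG over MG was then 0.20 at each of Lhfpl2, Arap1 and Zdhhc14. With 1 MG library, no call is read from that fit. Zdhhc14 lost its call without LL-MG 2 (adjusted p = 0.0738) and without MG 2 (adjusted p = 0.0532), in edgeR's test. Its log2 fold change stayed between 0.28 and 0.40 with any 1 library left out. Lhfpl2 and Arap1 kept their calls without any 1 library, at adjusted p up to 0.0439 and 0.0447. With the titles' numbers as a block, edgeR's adjusted p was 0.153 at Lhfpl2, 0.191 at Arap1 and 0.264 at Zdhhc14, with log2 fold changes of 0.47, 0.32 and 0.25. In that fit 0 of all loci were called, with 3259 at an unadjusted p under 0.05. Only the number that covers all 4 groups, with 1 library of each, holds both LL-MG and MG. The others hold lipid-laden or unladen libraries alone, so this fit cannot decide whether the calls hold. Fitted on LL-MG and MG alone, edgeR called 0 of 14900 loci, with 4723 at an unadjusted p under 0.05. DESeq2 and limma-voom, over all 4 groups, kept all 3 calls. With the groups of the sample titles none of the 3 was called, at edgeR adjusted p of 0.258 (Lhfpl2), 0.516 (Arap1) and 0.873 (Zdhhc14). Libraries titled MG, which are MDM 2, LL-MDM 1 and LL-MDM 3 by description, had 1.04, 11.8 and 6.21 CPM at the microglia marker Sall1. Those titled LL-MG, which are MG 2, LL-MG 1 and LL-MG 3, had 45.7, 64.4 and 64.9 CPM. The fit by title thus does not compare lipid load within a lineage as its marker shows it.

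Some marker loci of other cells were lower in LL-MG than in MG, and those given here had their highest values in MG 2 and MG 3. The locus of Ccr2, a chemokine receptor of monocytes, had 3.03, 5.39 and 5.55 CPM in LL-MG, against 10.3, 49.1 and 30.1 CPM in MG, a log2 fold change of -2.74 ± 0.56 (SE; edgeR adjusted p = 0.0112). The locus of Cd3d, a T cell receptor subunit, had 24.2, 20.7 and 19.8 CPM in LL-MG, against 29.4, 66.7 and 39.2 CPM in MG (-1.12 ± 0.25; edgeR adjusted p = 0.0105). The locus of Cxcr2, a chemokine receptor of neutrophils, had 24.2, 23.4 and 22.2 CPM in LL-MG, against 22.7, 55.0 and 37.8 CPM in MG (-0.78 ± 0.24; edgeR adjusted p = 0.0321). Of 4 loci of T and NK cell markers 2 were called lower, with a summed level of 98.4 to 115.9 CPM in LL-MG and 115.9 to 216.2 CPM in MG. Of 4 neutrophil marker loci 1 was called lower, with 34.7 to 37.2 CPM in LL-MG and 35.1 to 78.8 CPM in MG, and of the 7 markers of monocyte-derived macrophages 1 was called lower. Over all loci 20.5% were called lower and 4.53% higher. The median log2 fold change was -0.83 for the T and NK cell list, -0.68 for neutrophils and -0.01 for monocyte-derived macrophages. None of these 3 lists had a locus called higher. In other lists, 2 of 5 glial progenitor and tumour marker loci were called higher. So were 1 of 4 astrocyte, 1 of 3 endothelial and 1 of 4 dendritic cell marker loci, while 1 of 3 B cell loci was called lower. The part of other cells in the member values was not tested.

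By region, 13 of the 77 tested regions were called higher in LL-MG than in MG and 2 lower, against 4.22% and 8.01% of all regions. Of all regions called, 34.5% were higher with TMM and 49.5% with total counts. The 13 were 5 at Arap1, 4 at Lhfpl2 and 4 at Zdhhc14, and both lower ones were at Zdhhc14. The count of 13 became 6 without MG 2, 6 without LL-MG 2, 7 without LL-MG 1 and 32 without MG 1. It was 5 with LL-MG and MG fitted alone and 21 with total counts. The count of 2 was 1 without MG 2, 1 without MG 3 and 4 without MG 1. The log2 fold change of LL-MG over MG was 0.90 ± 0.16 at the Arap1 lead (adjusted p = 0.00119), 0.78 ± 0.14 at the Zdhhc14 lead (adjusted p = 0.00134) and 0.82 ± 0.15 at the Lhfpl2 lead (adjusted p = 0.00167), in the edgeR test over 77737 regions. These 3 calls held when any 1 library was left out, with adjusted p up to 0.018. Whether they hold without MG 2 and MG 3 together cannot be tested with the 1 MG library left. With the titles' numbers as a block, edgeR's adjusted p was 0.262, 0.231 and 0.172, a fit with the limit given above. At the leads of Galnt1 and Mms19 the log2 fold change of LL-MG over MG was 0.31 ± 0.19 (adjusted p = 0.274) and 0.53 ± 0.22 (adjusted p = 0.106).

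The strongest microglial gain within the loci was at Zdhhc14, in chr17:5576814-5577108, with 14.3, 16.6 and 13.9 CPM in LL-MG, against 6.73, 4.26 and 5.36 CPM in MG. It had 10.2, 7.72 and 10.5 CPM in LL-MDM, against 3.07, 4.99 and 2.94 CPM in MDM. Laden cells were above unladen cells of the same lineage in every library, and the log2 fold change of LL-MG over MG was 1.5 ± 0.27 (SE; edgeR adjusted p = 0.00127). The deepest loss was also at Zdhhc14, in chr17:5748133-5748387, with 1.30, 0.449 and 1.73 CPM in LL-MG, against 4.61, 13.3 and 6.06 CPM in MG. The MG 2 library was the highest, and the log2 fold change was -2.80 ± 0.52 (SE; edgeR adjusted p = 0.00177). In the monocyte-derived groups this region averaged 1.75 ± 1.45 CPM in LL-MDM and 1.20 ± 0.402 CPM in MDM (SD, n = 3 each).

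**Figure D3:**
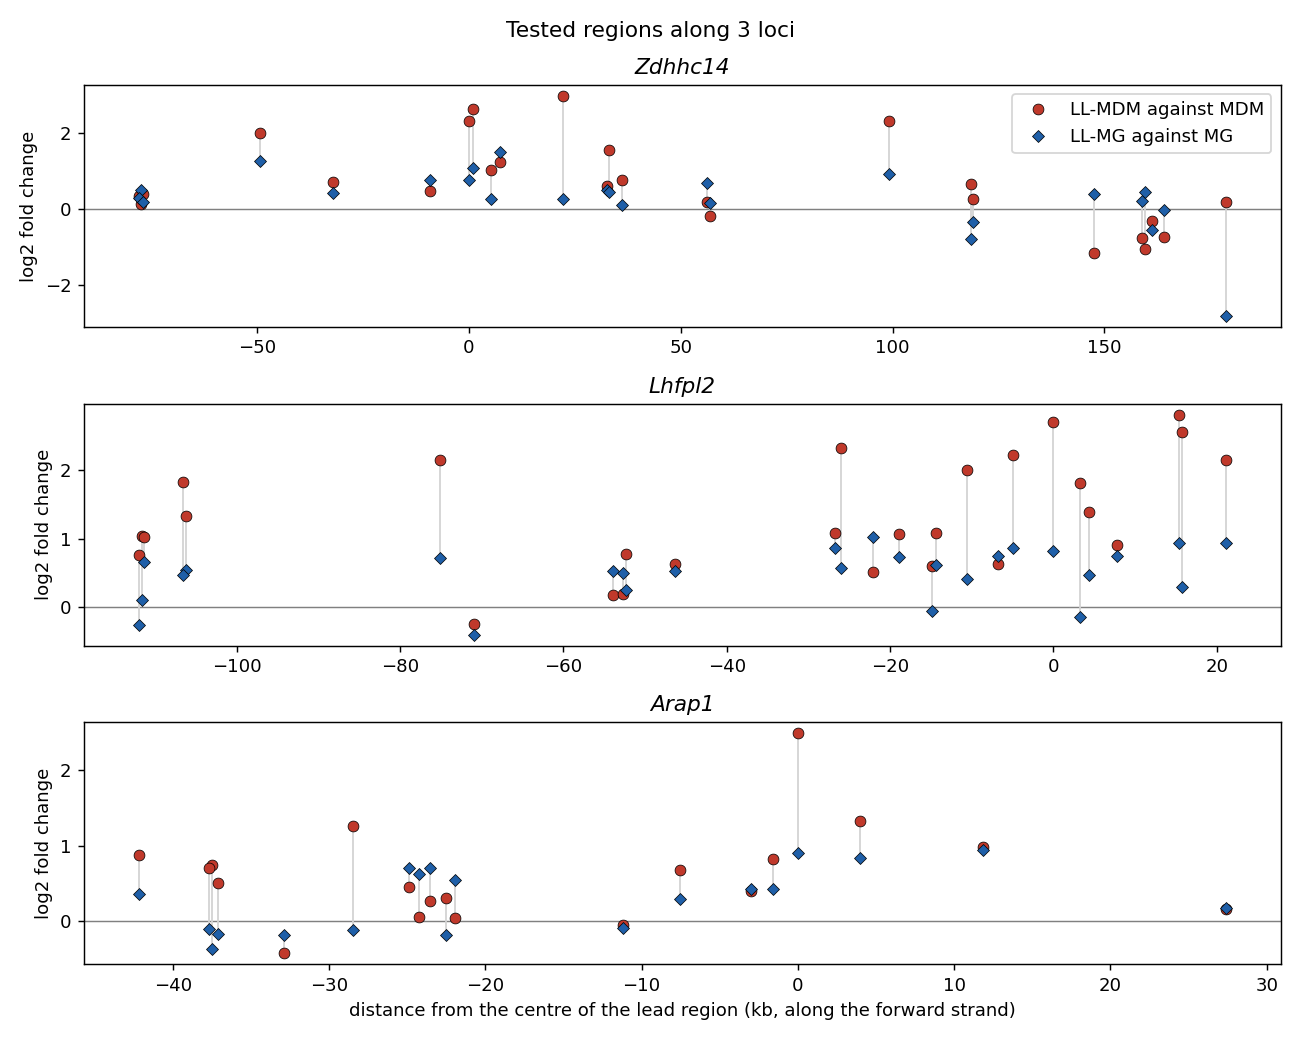
Log2 fold change (vertical axis) of each tested region of Zdhhc14, Lhfpl2 and Arap1 by its distance from the centre of the lead region (horizontal axis, kb along the forward strand). Circles show LL-MDM against MDM and diamonds LL-MG against MG. The circles of Lhfpl2 reach 2.82 and lie above 0 in all but 1 region, whereas those of Zdhhc14 run from -1.15 to 2.98.

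Of the 42 regions called higher in LL-MDM, 11 were called higher in LL-MG as well, 4 at Zdhhc14, 4 at Lhfpl2 and 3 at Arap1, and none was called lower, where 2.07% of the 12005 regions called higher in LL-MDM over the whole series were. Over the whole series 2.06% of tested regions were called higher in both, which was 13.4% of the 12005. A log2 fold change of LL-MG over MG above 0 was found in 38 of the 42, against 78.0% of the 12005. These comparisons share no library, but they share the estimate of spread, and the microglia calls carry the limits given above for the libraries and the block.

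**Figure D4:**
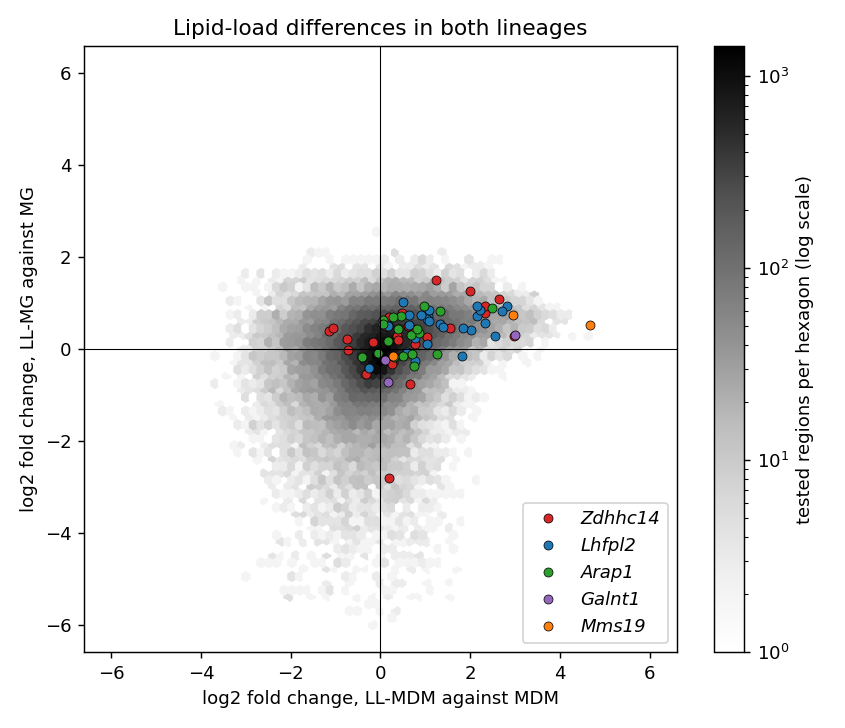
Log2 fold change of LL-MDM against MDM (horizontal axis) and of LL-MG against MG (vertical axis) for every tested region, shaded by the number of regions on a log scale, with the 77 regions of the 5 loci as coloured points. Most coloured points lie right of and above 0. The Mms19 lead lies farthest right at 4.67, and 1 Zdhhc14 region lies lowest at -2.80.

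Set against microglia without lipid load, LL-MDM stood above, among or below the MG libraries, depending on the locus. These comparisons share the LL-MDM libraries with the choice of members, so they are given without a p. At the locus level LL-MDM was above all MG libraries at Zdhhc14, with a log2 fold change of 0.28 ± 0.09 (SE), where 11.1% of all loci were. It was below all MG libraries at Galnt1, by a log2 fold change of -0.50 ± 0.10, where 24.5% of all loci were. It overlapped MG at Arap1 (0.16 ± 0.09), Mms19 (-0.14 ± 0.10) and Lhfpl2 (-0.16 ± 0.10). The median of LL-MDM against MG over all loci was -0.12, close to the values of Mms19 and Lhfpl2. Against LL-MG it was lower without overlap at Lhfpl2 (-0.57 ± 0.10), Galnt1 (-0.44 ± 0.11) and Arap1 (-0.18 ± 0.09), where 19.0% of all loci were, and overlapped at Mms19 (-0.07 ± 0.10) and Zdhhc14 (-0.02 ± 0.09).

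MDM was the lowest group at all 5 loci. Its log2 fold change over MG was -1.16 ± 0.10 at Lhfpl2, -1.04 ± 0.10 at Galnt1, -0.52 ± 0.10 at Mms19, -0.36 ± 0.08 at Arap1 and -0.31 ± 0.08 at Zdhhc14, in each case without overlap. Over all loci 30.6% had MDM below MG without overlap, and the median log2 fold change was -0.14. The order of the group means was LL-MG, LL-MDM, MG and MDM at Zdhhc14 and Arap1, LL-MG, MG, LL-MDM and MDM at Lhfpl2, and MG, LL-MG, LL-MDM and MDM at Galnt1 and Mms19. Neighbours in these orders that overlapped were LL-MG and LL-MDM at Zdhhc14, LL-MDM and MG at Arap1, MG and LL-MDM at Lhfpl2, MG and LL-MG at Galnt1, and MG, LL-MG and LL-MDM at Mms19.

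Among the 77 regions 3 had all LL-MDM libraries above the other 9, where 2.81% of all tested regions did. They were chr17:5591624-5592041 of Zdhhc14, given above, and a pair of Lhfpl2 regions. Of these, chr13:94158868-94159071 had 16.1, 11.4 and 17.7 CPM in LL-MDM, against 4.47, 2.54 and 3.92 CPM in MDM, and averaged 6.62 ± 1.03 CPM in LL-MG and 5.39 ± 2.51 CPM in MG. The other, chr13:94154442-94154961, averaged 33.4 ± 2.77 CPM in LL-MDM, 22.4 ± 0.987 CPM in MDM, 23.4 ± 0.886 CPM in LL-MG and 24.0 ± 4.68 CPM in MG (SD, n = 3 each). At these 3 regions LL-MDM exceeded both kinds of microglia, and at all 5 leads it lay below LL-MG.

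Where LL-MDM stood between MDM and LL-MG was expressed as a percentage, with the mean of MDM at 0 and the mean of LL-MG at 100. The leads stood at 69.7% (Zdhhc14), 47.6% (Galnt1), 41.9% (Lhfpl2), 36.4% (Arap1) and 32.1% (Mms19). All 5368 tested regions that were at least 3 times higher in LL-MG than in MDM, with at least 5 CPM in LL-MG, had a median of 26.2% and quartiles of 14.4% and 42.4%. These limits were set after the values had been seen. The 23 regions of this kind in the 5 loci ran from 28.7% to 171.8%, with a median of 44.6%, and their choice on LL-MDM sets this in part.

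Markers of microglia moved with these loci. The Sall1 locus, which encodes a transcription factor that defines microglia, averaged 9.21 ± 2.84 CPM in LL-MDM, 0.789 ± 0.277 CPM in MDM, 71.0 ± 10.9 CPM in LL-MG and 58.6 ± 14.6 CPM in MG (SD, n = 3 each). Its libraries in LL-MDM ran from 6.21 to 11.8 CPM and in MDM from 0.49 to 1.04 CPM, so Sall1 was higher in LL-MDM and still far below microglia. On the same percentage scale Sall1 stood at 12.0%, Sall3 at 15.9% and Fcrls at 36.6%, whereas P2ry12 stood at -2.81%, Cx3cr1 at -5.58%, Siglech at -25.5% and Tmem119 at 177.1%. Of the 8 microglia marker loci 4 were called higher in LL-MDM than in MDM and 0 lower, against 11.5% and 9.65% of all loci. None of the 7 markers of monocyte-derived macrophages was called higher and 3 were called lower. The one that fell most was H2-Aa, an antigen-presenting molecule, at 58.4, 51.6 and 46.1 CPM in LL-MDM, against 197.7, 201.6 and 214.0 CPM in MDM. Fn1, Cd44 and Ms4a7 of this list had log2 fold changes above 0, at 0.31 ± 0.13, 0.27 ± 0.10 and 0.11 ± 0.13 (SE), so the list did not fall as a set. Of 4 dendritic cell marker loci 0 were called higher and 3 lower, and their summed level ran from 379.5 to 409.7 CPM in LL-MDM, against 545.9 to 611.9 CPM in MDM. Among them Ccr7, a chemokine receptor, had 34.7, 24.3 and 20 CPM in LL-MDM, against 88.2, 71.9 and 81.4 CPM in MDM. The leads, chosen for LL-MDM over MDM, stood above Sall1 and Sall3 and below Tmem119, and those of Arap1 and Mms19 also stood below Fcrls. The part of microglial DNA in the LL-MDM libraries, or of dendritic cells in the MDM libraries, in any of these levels was not tested.

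**Figure D5:**
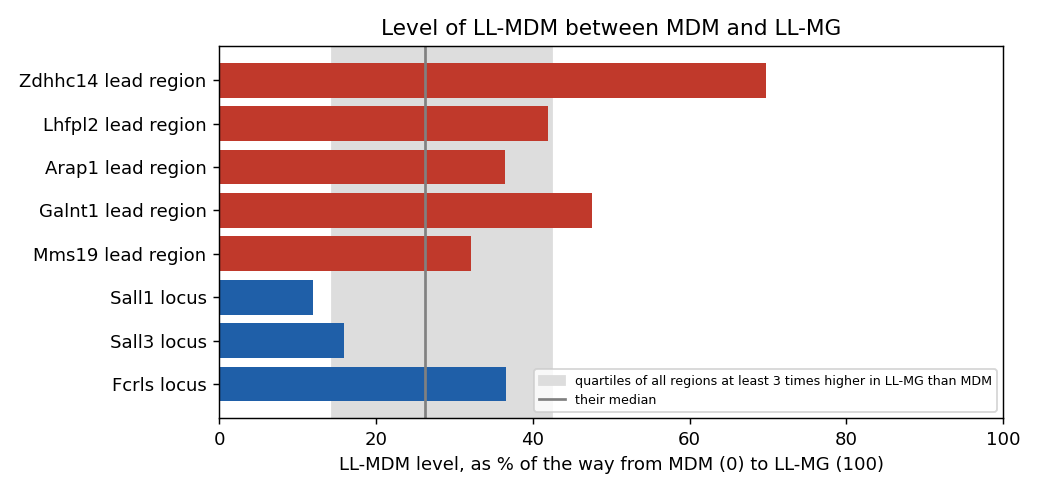
Level of LL-MDM as a percentage of the way from the MDM mean (0) to the LL-MG mean (100, horizontal axis). Bars show the lead region of each locus and 3 of the 8 microglia marker loci. P2ry12 (-2.81%), Cx3cr1 (-5.58%), Siglech (-25.5%) and Tmem119 (177.1%) fall outside the axis and are not drawn, so the bars do not stand for the whole list. The grey band gives the quartiles, 14.4% to 42.4%, and the line the median, 26.2%, of all regions at least 3 times higher in LL-MG than in MDM. The leads lie between 32.1% and 69.7% and the Sall1 locus at 12.0%.

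Markers of lipid-laden macrophages gave a frame for the size of the locus differences. All 5 of Gpnmb, Abca1, Trem2, Apoe and Plin2 were called higher in LL-MDM than in MDM, with log2 fold changes of 0.99 ± 0.13, 0.75 ± 0.10, 0.72 ± 0.16, 0.67 ± 0.12 and 0.60 ± 0.11 (SE), in that order. Of the 5 loci described here, Mms19, at 0.38 ± 0.10, lay below the lowest of these markers, Plin2, and Lhfpl2 was at 1.00 ± 0.10. Zdhhc14 (0.59 ± 0.08), Galnt1 (0.54 ± 0.10) and Arap1 (0.51 ± 0.08) were below Plin2 by no more than its SE. In microglia 2 of the 5 markers were called higher in LL-MG, Plin2 (0.35 ± 0.11) and Abca1, a cholesterol exporter (0.33 ± 0.10). Trem2 (0.39 ± 0.17), Apoe (0.21 ± 0.12) and Gpnmb (0.05 ± 0.15) were not called there. Over all loci 11.5% were called higher in LL-MDM and 4.53% in LL-MG.

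Each of the 5 genes belongs to a family or pathway whose other loci were also measured. Over all loci 11.5% were called higher and 9.65% lower in LL-MDM, and 4.53% higher and 20.5% lower in LL-MG. The family counts include the member itself, whose LL-MDM call follows from its choice, and nothing is called particular to a family from them. Among 21 tested palmitoyltransferase loci, 2 were called higher and 2 lower in LL-MDM, and 2 higher and 3 lower in LL-MG. The higher ones in LL-MG were Zdhhc14 and Zdhhc18, which averaged 256.5 CPM in LL-MG and 187.9 CPM in MG, with a log2 fold change of 0.45 ± 0.09 (edgeR adjusted p = 0.00309). Zdhhc18 did not differ detectably between LL-MDM, at 151.5 CPM, and MDM, at 148.9 CPM. Zdhhc4 fell to 41.6 CPM in LL-MG, against 64.7 CPM in MG. Zdhhc14 had the highest locus level of this family in all 4 groups, although a longer gene collects more regions.

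Lhfpl2 was the only LHFPL locus with more than 10 CPM in any group. Of the 5 tested loci of this family it alone was called, higher in LL-MDM and higher in LL-MG. Lhfpl3, the next in LL-MG, averaged 8.93 CPM in LL-MG and 5.84 CPM in MG, and 1.63 CPM in LL-MDM and 1.44 CPM in MDM.

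Among 21 loci of proteins that activate GTP hydrolysis by Arf, 2 were called higher and 3 lower in LL-MDM, and 3 higher and 5 lower in LL-MG. Arap3 was the other one higher in LL-MDM, at 100.4 CPM in LL-MDM and 76.4 CPM in MDM, with a log2 fold change of 0.38 ± 0.09. Arap2 was called lower, at 31.9 CPM in LL-MDM and 45.7 CPM in MDM, so the 3 Arap genes were not called in the same direction. In LL-MG, Asap1 fell to 346.2 CPM, against 423.3 CPM in MG, and Smap1 fell to 25.9 CPM, against 36.6 CPM in MG.

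Among 18 tested loci of O-GalNAc transferases and related enzymes, 5 were called higher and 0 lower in LL-MDM, and 3 higher and 3 lower in LL-MG. Galnt18 was higher in both, at 6.75 CPM in LL-MDM and 2.17 CPM in MDM, and at 31.1 CPM in LL-MG and 19.3 CPM in MG. Galnt9 rose to 7.35 CPM in LL-MG, against 3.24 CPM in MG. Galnt7, the locus of this family with the highest level, averaged 214.0 CPM in LL-MDM, 223.4 CPM in MDM, 258.4 CPM in LL-MG and 262.1 CPM in MG, and was called in neither comparison.

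Among 16 loci of the cytosolic iron-sulfur assembly machinery and enzymes that receive its clusters, Mms19 alone was called higher in LL-MDM and 2 were called lower. In LL-MG 0 were called higher and 2 lower. These were Pold1, a replicative DNA polymerase, at 115.1 CPM in LL-MG and 147.5 CPM in MG, and Ciao3, which works with Mms19, at 52.1 CPM in LL-MG and 64.6 CPM in MG. The family counts for LL-MG against MG carry the same limits as the member calls.

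Of 12 genes next to the 5 loci, 4 were called higher in LL-MDM than in MDM and none lower, against 11.5% and 9.65% of all loci. Scamp1, 5900 bp from the Lhfpl2 span and with no shared region, averaged 45.5 ± 2.35 CPM in LL-MDM and 27.0 ± 2.71 CPM in MDM (SD, n = 3 each), and ran from 48.5 to 51.0 CPM in LL-MG and from 42.3 to 50.7 CPM in MG. It was called higher in LL-MDM, with a log2 fold change of 0.74 ± 0.12 (edgeR adjusted p = 8.07e-05). Arsb, on the other side of Lhfpl2 and 114136 bp away, was also called higher, with a log2 fold change of 0.45 ± 0.10. Lhfpl2 was the 1 locus with called neighbours on both sides that share no region with it. Pde2a, 9105 bp from Arap1, had 166.6 CPM in LL-MDM and 164.7 CPM in MDM. Stard10, a lipid transfer protein gene that shares Arap1 regions, was called higher in LL-MDM, but its own regions averaged 19.7 CPM in LL-MDM and 18.3 CPM in MDM. Exosc1, Zdhhc16 and Ubtd1 near Mms19, Ino80c and Gm32436 near Galnt1, and Snx9 and Tmem242 near Zdhhc14 were not called in LL-MDM against MDM. Gm52310, which lies inside the Zdhhc14 stretch, was called higher through shared regions, with own regions at 1.07 CPM in LL-MDM and 0.958 CPM in MDM.

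The loci most like the mean standardised log2 profile of the 5 members over the 12 libraries were Rdh5, Angptl4, Fnip2, Alg1 and Timp2, with Pearson r between 0.984 and 0.987. With 4 groups of 3 libraries this mostly measures the order of the groups, and it is given as a description. Angptl4, which encodes an inhibitor of lipoprotein lipase, averaged 55.2 ± 1.73 CPM in LL-MDM, 34.2 ± 2.37 CPM in MDM, 69.9 ± 4.79 CPM in LL-MG and 57.8 ± 2.3 CPM in MG. Fnip2, a folliculin partner, averaged 337.0 ± 16.6 CPM in LL-MDM, 202.6 ± 20.2 CPM in MDM, 403.0 ± 19.2 CPM in LL-MG and 324.9 ± 8.48 CPM in MG (SD, n = 3 each). In both, MDM was the lowest group and LL-MG the highest, as at Lhfpl2.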

How the data were processed

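Whole-number counts of ATAC-seq reads from 12 libraries in 117835 merged regions were used as deposited by the authors, not normalized. The submitters' processing notes name the mm10 build and the tools deepTools 3.5.1, Picard 2.12.0, SAMtools 1.10 and BWA 0.7.17-r1188, without roles. Per the labels' protocols, nuclei were tagmented with Tn5 and amplified in a pair of PCR rounds. Which program called peaks, whether duplicates were removed and whether reads were shifted for Tn5 is not given in the sources used here. Coordinates are printed as deposited. Groups follow the sample descriptions, and 0 value columns were unmapped. Replicates are numbered in sample order, and these numbers pair nothing; the titles' own numbers were used as a block in alternatives added after the data were seen.

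Regions that passed filterByExpr (77737) were scaled with TMM and tested over all 4 groups with edgeR 4.0.16 in R 4.3.3 (glmQLFit robust, glmQLFTest, Benjamini-Hochberg adjusted p under 0.05 over all features). Locus counts were summed over the regions of each of 21627 RefSeq protein-coding genes (GRCm38.p6) and tested with the region totals and TMM factors, for 15540 loci. SE came from the log2 fold change and its F value. The fits were also run on simulated counts with the same spread in every group. Replicates here differ in spread from group to group, so those runs do not vouch for the calls. Exon, intron and UTR positions are not used here. Counts may include PCR copies, so errors are the spread between libraries, not counting errors. The members, marker lists and families were chosen with earlier results of these data known. The value of 1 marker locus alone is not reported here. All 5 members are named; of the families, up to 3 loci with the smallest p in LL-MG against MG and the one with the highest level, and any other family locus named was chosen after its values were seen. Alternatives used DESeq2 1.42.0, limma 3.58.1, RLE, total counts, loess offsets, other filters, thinned counts, the titles' groups and each library left out.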

Additional observations from a re-analysis of the deposited data

Results flagged for a closer look

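The Zdhhc14 region chr17:5687917-5688093 moved in opposite directions in the lineages. It had 1.69, 2.13 and 1.96 CPM in LL-MDM, against 1.19, 1.19 and 1.63 CPM in MDM, so the laden libraries were all higher. It had 2.59, 2.70 and 1.73 CPM in LL-MG, against 2.83, 4.75 and 3.73 CPM in MG, so the laden libraries were all lower. The log2 fold changes were 0.66 ± 0.39 and -0.77 ± 0.41 (SE), which is a difference of 1.43. The difference between the lineages was not tested, and the microglial value did not pass edgeR's test (adjusted p = 0.213). At about 2 CPM the shallowest LL-MDM library holds only a few counts here.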

How the results depend on the processing

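For LL-MG against MG, 9505 regions and 3886 loci were called. Regions called were 6295 with DESeq2, 6171 with limma-voom, 1851 on the 2 groups alone, 2465 with counts thinned to the smallest library and 42 without MG 2 and MG 3, an alternative chosen after seeing the data. Loci called were 0 on the 2 groups alone, 1297 thinned, 1178 with groups by title, 2315 from regions of no other gene and 7 without MG 2 and MG 3. Leaving out 1 library gave 3034 (without MG 2) to 22329 (without MG 1) regions and 1096 to 6419 loci. On the 2 groups alone, the edgeR values were 0.30 (adjusted p = 0.0768) at Zdhhc14, 0.40 (0.0705) at Lhfpl2 and 0.33 (0.0705) at Arap1. By title, a comparison between the lineages of the descriptions, they were 0.09 (0.873), 0.68 (0.258) and 0.25 (0.516), and Galnt1 turned to 0.65 (0.0381). Without MG 2 and MG 3, an alternative chosen after seeing the data that leaves 1 MG library, Zdhhc14, Lhfpl2 and Arap1 were each 0.20. Leaving out 1 library gave 0.28 to 0.40 at Zdhhc14, 0.35 to 0.55 at Lhfpl2 and 0.31 to 0.44 at Arap1.

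For LL-MDM against MDM, 22969 regions and 3282 loci were called. Regions called were 5103 thinned and 13759 by title, and loci called were 5156 on the 2 groups alone, 1603 thinned, 2014 by title and 5528 without MG 2 and MG 3. Leaving out 1 library gave 11750 to 31115 regions and 1970 to 4721 loci. Locus values that moved by more than the replicate spread were Lhfpl2 at 0.94 with loess offsets, Galnt1 at 0.63 thinned, Zdhhc14, Arap1 and Galnt1 at 0.22, 0.28 and 0.82 by title, and Zdhhc14 and Mms19 at 0.67 and 3.27 from regions of no other gene. In LL-MDM against MG, Galnt1 was -0.41 with total counts, -0.36 with loess offsets, -0.33 thinned and -0.52 to -0.40 with 1 library left out. By title, Zdhhc14 was 0.09, and Lhfpl2, Galnt1 and Mms19 turned to 0.71, 0.58 and 0.20. Mms19 was -1.05 from regions of no other gene, and without MG 2 and MG 3 Zdhhc14, Lhfpl2 and Arap1 were 0.19, -0.37 and 0.02. Fewer libraries or counts enter the 2-group, left-out and thinned fits, and for the other alternatives the cause was not tested. Lead values of LL-MDM over MDM that moved were 2.57 (Zdhhc14), 3.13 (Lhfpl2), 2.93 (Arap1), 4.43 (Galnt1) and 3.35 (Mms19) thinned, 1.06, 1.96, 1.83, 2.06 and 2.58 in that order by title, and 2.63 at Lhfpl2 without MDM 1. Of the remaining locus values, 121 in LL-MG against MG stayed called or stayed uncalled. Uncalled ones could change sign, as Galnt1 at 0.13 and Mms19 at 0.05 with loess offsets. In LL-MDM against MDM 129 values, and in LL-MDM against MG 124, moved by less than the replicate spread. Depth limits regions near 1 CPM, where LL-MDM 1 holds about 1 count.

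The titles' numbers were used as a replicate block in a pair of fits added after seeing the data. With groups by description, where 1 of the 3 numbers covers all 4 groups, the block left 0 regions (11480 at an unadjusted p under 0.05) and 0 loci called by edgeR in LL-MG against MG, with 0.25 at Zdhhc14, 0.47 at Lhfpl2 and 0.32 at Arap1, and 3934 regions and 515 loci in LL-MDM against MDM, with 1.06 at Lhfpl2 and leads of 2.07 at Zdhhc14 and 2.11 at Arap1. With groups by title, the block gave 1496 loci in LL-MG against MG, with 0.10 at Zdhhc14, 0.71 at Lhfpl2, 0.25 at Arap1 and 0.66 at Galnt1, which turned. In LL-MDM against MDM it gave 0.24 at Zdhhc14, 0.30 at Arap1 and 0.84 at Galnt1, and leads of 1.39, 2.32, 2.17, 2.56 and 3.44 in the order above. In LL-MDM against MG, Zdhhc14 was 0.10, and Lhfpl2, Galnt1 and Mms19 turned to 0.75, 0.59 and 0.21. By title, deviations of same-numbered libraries correlated at 0.114 to 0.196 in LL-MDM against MDM and at 0.0606 to 0.198 in LL-MG against MG. The highest correlation with a library of another number was -0.109 to 0.115 and -0.0471 to 0.135, in that order. For 1 number in LL-MG against MG it was above the same-number value, at 0.135 against 0.0606, and in the other cases it was below. Whether the numbers pair libraries is not settled by these values. By description the numbers leave too few pairs for this check.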
